A study of Homo sapiens with 6 samples.

Results

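The LIN28 proteins, the IGF2BP proteins and the enzymes that make and load small RNAs were examined in 2 Ewing tumor cell lines in which STEAP1 had been silenced. The set named 10 genes: LIN28A, LIN28B, HMGA2, IGF2BP1, IGF2BP2, IGF2BP3, DICER1, DROSHA, AGO1 and AGO2. A gene was measured where a probe set (the group of array probes summarised into 1 value) was annotated to that gene and no other, and 9 of the 10 were, out of 18417 genes in all. HMGA2 has no value here, because its only probe set is annotated to 2 genes. The genes were chosen by measured values of these same 6 arrays: LIN28B by its difference between the lines and DICER1 by its difference between the siRNAs. Members' values in those 2 contrasts are therefore given as a description. Counts of members past a threshold there stand beside the share of all genes and are no test of the members.

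RNA came from A673 and SK-N-MC, established human lines derived from Ewing tumors, a bone and soft tissue cancer driven by a fusion of EWSR1 with an ETS gene. Each line had 2 arrays of cells given a short interfering RNA (siRNA) against STEAP1, a metalloreductase of the cell surface that is abundant in Ewing tumors, and 1 array of cells given a control siRNA. The labels number the arrays of STEAP1 silencing 2 and 3 in each line. These numbers are taken here to name the siRNAs, called siRNA 2 and siRNA 3, but the labels do not tell reagents from cultures. The siRNA was present at 5 nM for 48 h, and 200 ng of total RNA was labelled. All 6 arrays thus come from cells that received an siRNA. Which control siRNA was used is not told by the labels, which number it 2 in A673 and leave it without a number in SK-N-MC. Each line stands for 1 tumor. Separate cultures are not stated for the arrays within a line, and the p-values cover the spread among these arrays alone.

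Values are log2 of the deposited intensities, and levels are compared within a probe set only. The median array value lay between 2.59 and 2.70 and the lower quartile between 1.42 and 1.49 on the 6 arrays. Arrays of a line correlated at 0.986 to 0.993 over genes, and arrays of different lines at 0.946 to 0.949. STEAP1 stood at 4.17 to 4.73 on the 4 siRNA arrays, against 6.23 and 7.15 on the A673 and SK-N-MC control arrays. Of 8 Ewing tumor markers, 7 were measured, among them CD99 at 9.40 to 10.25 and NKX2-2 at 5.57 to 6.15; CCK, another of the 7, stood at 2.47 or above. The 6 measured markers of blood, endothelial, epithelial, erythroid and liver cells lay between 1.01 and 2.26. In bulk RNA of this kind, fewer cells with a transcript and less transcript per cell cannot be told apart.

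MicroRNAs are cut out of long primary transcripts by DROSHA in the nucleus, exported, cut again by DICER1 in the cytoplasm, and loaded into Argonaute proteins such as AGO1 and AGO2, which they guide to messenger RNAs. LIN28A and LIN28B bind precursors of the let-7 family and block their maturation, and let-7 in turn lowers LIN28, HMGA2, MYC and other growth genes. IGF2BP1, IGF2BP2 and IGF2BP3 bind messenger RNAs and affect their stability, location and translation. HMGA2, IGF2BP and LIN28 genes are known as let-7 targets that are active in embryonic tissue and in many tumors.

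The arrays measured no mature let-7, so its sequences are shown to make clear what the LIN28 and IGF2BP genes share as targets. The 9 mature members in RefSeq (GRCh38.p14) are each 22 bases long, and bases 2 to 8, the seed that pairs with a target, are in capitals.
hsa-let-7a-5p: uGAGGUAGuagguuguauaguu
hsa-let-7b-5p: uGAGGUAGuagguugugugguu
hsa-let-7c-5p: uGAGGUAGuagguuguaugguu
hsa-let-7d-5p: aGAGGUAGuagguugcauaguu
hsa-let-7e-5p: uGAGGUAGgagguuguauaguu
hsa-let-7f-5p: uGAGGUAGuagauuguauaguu
hsa-let-7g-5p: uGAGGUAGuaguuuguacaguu
hsa-let-7i-5p: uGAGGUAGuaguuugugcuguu
hsa-miR-98-5p: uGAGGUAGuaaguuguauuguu
The 7 seed bases are identical in all 9, and the members differ in the bases after the seed, or in the first base. LIN28 proteins bind a GGAG motif near the end of the loop of the precursor. The precursor of let-7g is shown as the example because its host gene, WDR82, is among the genes measured below. It lies at chr3:52268278-52268361 on the minus strand of GRCh38.p14, and the GGAG between the mature arms is in capitals.
let-7g precursor: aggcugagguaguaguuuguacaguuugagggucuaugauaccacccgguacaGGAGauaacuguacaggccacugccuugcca
Among the precursors in the same table, GGAG stood between the arms of let-7a-1, let-7a-2, let-7c, let-7d, let-7e, let-7f-1, let-7g and let-7i, and not in let-7a-3, let-7b or miR-98. let-7f-2 was not assessed. These matches describe the letters of the precursors and not binding in these cells.

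LIN28B had the widest difference between lines among the 9 measured genes. LIN28B, which keeps let-7 precursors from being processed, stood at 1.57 (siRNA 2), 1.50 (siRNA 3) and 1.33 (control) in A673, against 5.38 (siRNA 2), 5.29 (siRNA 3) and 5.55 (control) in SK-N-MC. The 3 A673 arrays were all low and close to the lower quartile of their arrays, the 3 SK-N-MC arrays were all high, and the groups did not overlap. LIN28B averaged 1.47 ± 0.13 in A673 and 5.41 ± 0.14 in SK-N-MC (SD, n = 3 each), a log2 difference of -3.94 (SE 0.12), or 15.3-fold lower in A673. The size depends on the low end of the intensity scale: with 16 added to each intensity before log2, the difference was -1.64.

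LIN28A, the related protein of embryonic stem cells, was near the low end of the scale in both lines. Its probe set stood at 1.71 (siRNA 2), 1.62 (siRNA 3) and 1.59 (control) in A673, against 2.10, 2.14 and 1.65 in SK-N-MC in the same order. The SK-N-MC siRNA arrays were the highest, and the SK-N-MC control lay within the A673 values, so the lines overlapped. The second LIN28A probe set read 1.60, 1.44 and 1.66 in A673, against 2.16, 1.54 and 1.66 in SK-N-MC, and here only the SK-N-MC siRNA 2 array stood above the others. Of 6 pluripotent cell markers, 3 were measured, and POU5F1, NANOG and TDGF1 have no value here. ZFP42 lay between 0.95 and 1.34 and DPPA4 between 1.09 and 1.39, while SOX2 lay between 5.95 and 6.53.

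**Figure D1:**
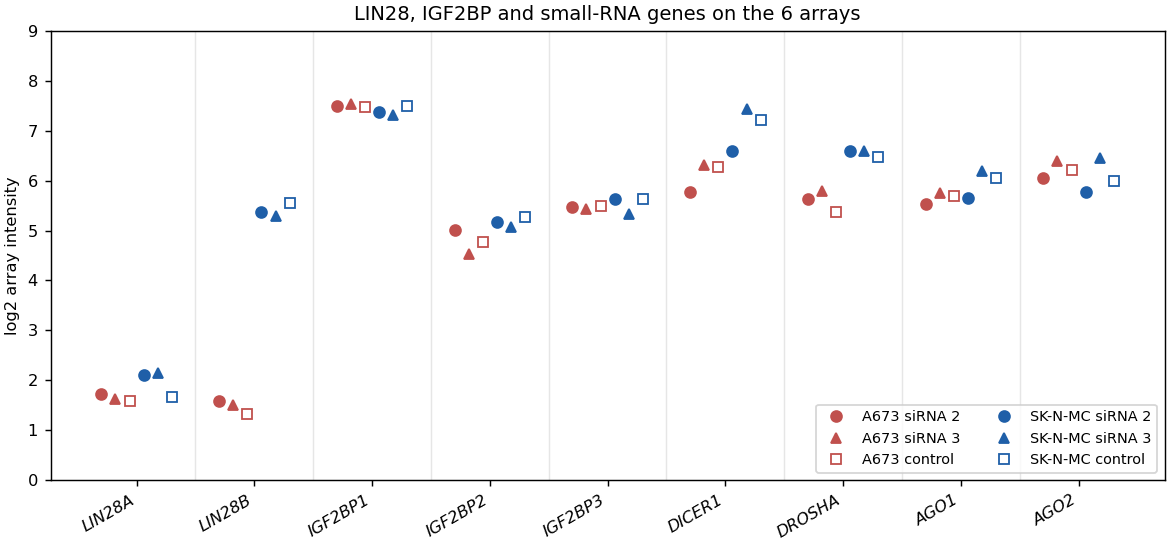
Log2 intensity (vertical axis) of the 9 measured genes on each of the 6 arrays, with circles for siRNA 2, triangles for siRNA 3 and squares for the control, red for A673 and blue for SK-N-MC; each point is 1 array. LIN28B lies between 1.33 and 1.57 in A673 and between 5.29 and 5.55 in SK-N-MC; levels of different genes come from different probes and are not comparable.

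Of the 3 IGF2BP genes, IGF2BP1 and IGF2BP3 overlapped between the lines and IGF2BP2 did not. IGF2BP1, which protects MYC and other transcripts from decay, stood at 7.51, 7.53 and 7.47 in A673, with siRNA 2, siRNA 3 and control, against 7.39, 7.32 and 7.50 in SK-N-MC. IGF2BP3 stood at 5.46, 5.44 and 5.49 in A673, against 5.64, 5.34 and 5.62 in SK-N-MC. The lines overlapped for both genes, and the line differences of 0.10 (SE 0.11) for IGF2BP1 and -0.07 (SE 0.12) for IGF2BP3 were smaller than their standard errors.

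IGF2BP2, the member of the family most widely expressed in adult tissue, stood at 5.01 (siRNA 2), 4.54 (siRNA 3) and 4.76 (control) in A673, against 5.18, 5.08 and 5.27 in SK-N-MC. All 3 A673 arrays lay below all 3 SK-N-MC arrays, and the log2 difference was -0.40 (SE 0.14). The gap between the highest A673 array and the lowest SK-N-MC array was narrow, and the A673 arrays spread more widely than the SK-N-MC arrays.

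Both processing enzymes were lower in A673. DROSHA, the nuclear enzyme that makes the first cut, stood at 5.64 (siRNA 2), 5.79 (siRNA 3) and 5.37 (control) in A673, against 6.60, 6.61 and 6.48 in SK-N-MC. The lines did not overlap, and the log2 difference was -0.96 (SE 0.11), or 1.95-fold lower in A673. DICER1, the cytoplasmic enzyme that makes the second cut, stood at 5.77, 6.32 and 6.27 in A673, against 6.59, 7.45 and 7.22 in SK-N-MC, a log2 difference of -0.97 (SE 0.23), or 1.96-fold lower in A673. The lines did not overlap for DICER1 either, but the siRNA 2 array was the lowest of each line.

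The Argonaute genes differed less between the lines. AGO1 stood at 5.54 (siRNA 2), 5.75 (siRNA 3) and 5.70 (control) in A673, against 5.65, 6.20 and 6.05 in SK-N-MC, with a log2 difference of -0.30 (SE 0.15). AGO2, the Argonaute that can itself cut a target, stood at 6.06, 6.39 and 6.22 in A673, against 5.77, 6.45 and 6.00 in SK-N-MC, with a log2 difference of 0.15 (SE 0.18). The lines overlapped for both genes, and within each line the siRNA 2 array was the lowest.

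Ordered by the line difference, LIN28B stood first, DICER1 and DROSHA came next with differences closer together than their standard errors, and IGF2BP2, LIN28A, AGO1, IGF2BP3, IGF2BP1 and AGO2 followed. By limma with Benjamini-Hochberg adjustment over all genes at a threshold of 0.05, 3 of the 9 genes were past the threshold in the direction lower in A673, as were 11.4% of all genes. None of the 9 passed in the direction higher in A673, against 13.5% of all genes. All 3 A673 arrays lay below all 3 SK-N-MC arrays for 4 of the 9 genes, against 18.5% of all genes, and above them for 0 of the 9, against 19.4%. Since the set was selected on this contrast, nothing is read from these shares.

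**Figure D2:**
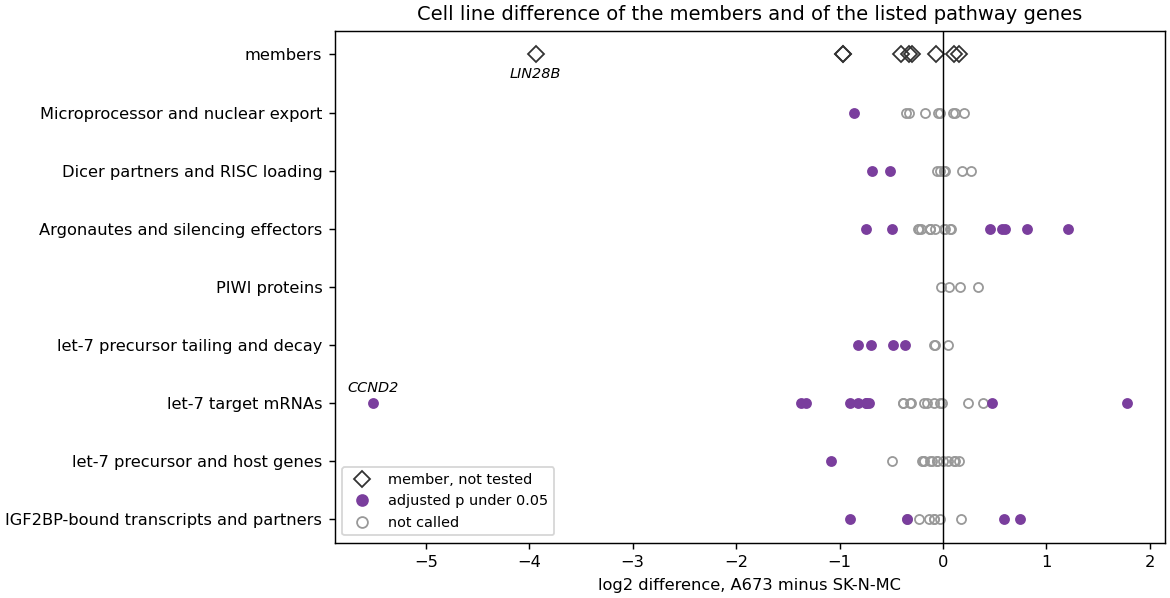
Log2 difference of A673 minus SK-N-MC (horizontal axis) for the 9 members, as open diamonds without a test, and for the 90 other pathway genes by list (rows); filled circles are genes with an adjusted p under 0.05 by limma and open circles the rest, and 1 symbol is 1 gene. LIN28B at -3.94 lies far to the left of the other members, and CCND2 at -5.52 lies lower still.

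The other genes of the pathway were taken from 8 lists by function, which name 102 genes, of which 90 that are no members were measured. Among the measured genes, TRIM71, MYC and SYNCRIP each stand in 2 lists. The 90 genes were tested between the lines: 9 (10%) were higher and 18 (20%) lower in A673 by limma, against the 13.5% and 11.4% of all genes given above. In a fit of only the 7413 genes of mean log2 of at least 4, 3152 passed in either direction, a larger share than over all genes. The share of calls thus depends on the level of the genes, and the counts are not read as an excess in the pathway. The median difference of the 90 genes was -0.08, against -0.02 over all genes. All 3 A673 arrays lay below all 3 SK-N-MC arrays for 23 of the 90 (25.6%), against 18.5% of all genes. They lay above them for 11 (12.2%), against 19.4% of all genes. Of the 27 calls, 17 held in all 6 fits that left out 1 array.

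Counts in the single lists stand beside the 13.5% of all genes that were higher in A673 and the 11.4% that were lower. The lists are short, and no list was tested as a set. The first steps of the pathway are given first. Of 9 measured genes of the nuclear complex and of export, 1 was lower in A673: XPO5, the exportin that carries precursors to the cytoplasm, stood at 6.50, 6.43 and 6.41 in A673, against 7.16, 7.40 and 7.36 in SK-N-MC, a difference of -0.86 (SE 0.11, limma adjusted p = 8.44e-04). The lines did not overlap. Of 9 measured partners of Dicer and of loading, 2 were lower in A673. These were IPO8, an importin that binds Argonautes, with -0.52 (SE 0.10, limma adjusted p = 0.00719), and ADAR, which edits double-stranded RNA, with -0.69 (SE 0.17, limma adjusted p = 0.0188). ADAR passed in only 2 of the 6 fits that left out 1 array.

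Of the 18 Argonaute and effector genes, 5 were higher and 2 lower in A673. The RNA helicase DDX6 stood at 8.18, 8.22 and 8.11 in A673, against 7.20, 6.84 and 6.85 in SK-N-MC, a difference of 1.21 (SE 0.12, limma adjusted p = 2.28e-04). GEMIN4, found in complexes with Argonautes, was higher by 0.81 (SE 0.15, limma adjusted p = 0.00406), and CNOT7, a deadenylase that shortens the tails of targeted messages, by 0.60 (SE 0.18, limma adjusted p = 0.0438). The decapping cofactor DCP1A was lower, with -0.74 (SE 0.13, limma adjusted p = 0.00327). CNOT7 passed in 1 of the 6 fits that left out 1 array, and the other 3 in all 6. The 4 PIWI genes, which act in the germline, lay between 0.96 and 1.96 on the 6 arrays, and none passed.

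Of 7 genes in the list for tailing and decay of let-7 precursors, which is not limited to enzymes, 4 were lower in A673 and none higher. TRIM71, a let-7 target that binds RNA, stood at 3.77, 3.84 and 3.34 in A673, against 4.65, 4.48 and 4.31 in SK-N-MC, a difference of -0.83 (SE 0.11, limma adjusted p = 9.54e-04). TUT7 and TUT4, the enzymes that add uridines to the precursor when LIN28 is bound, differed by -0.70 (SE 0.11, limma adjusted p = 0.00223) and -0.37 (SE 0.10, limma adjusted p = 0.0351). The poly(A) polymerase TENT2 differed by -0.48 (SE 0.12, limma adjusted p = 0.0178). TRIM71 and TUT7 passed in all 6 fits that left out 1 array, TENT2 in 2 and TUT4 in 1.

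Of 21 measured let-7 target genes, 2 were higher and 8 lower in A673. CCND2, a D-type cyclin, stood at 2.07, 1.79 and 2.05 in A673, against 7.47, 7.21 and 7.78 in SK-N-MC, a difference of -5.52 (SE 0.14, limma adjusted p = 1.98e-07). CCND1, the related cyclin, went the other way, at 9.21, 9.39 and 9.39 in A673, against 7.22, 7.68 and 7.75 in SK-N-MC, a difference of 1.78 (SE 0.14, limma adjusted p = 6.47e-05). The lines did not overlap for either cyclin. HMGA1, the chromatin protein related to HMGA2, was lower in A673, with -1.37 (SE 0.17, limma adjusted p = 5.85e-04), though another of its probe sets gave -0.47. TGFBR1, a receptor of TGF-beta, differed by -1.32 (SE 0.13, limma adjusted p = 1.76e-04).

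Of 14 measured let-7 precursor and host genes, 1 passed. WDR82, listed as the host of let-7g, stood at 6.97, 6.84 and 6.82 in A673, against 8.05, 7.93 and 7.91 in SK-N-MC, a difference of -1.09 (SE 0.11, limma adjusted p = 1.68e-04). The 10 measured precursors lay between 0.93 and 3.59 on all 6 arrays, and no precursor passed the test. Of 11 transcripts and partners of the IGF2BP proteins, 2 were higher and 2 lower in A673. MYC, a transcript that IGF2BP1 stabilises, stood at 7.49, 7.64 and 7.54 in A673, against 8.33, 8.53 and 8.50 in SK-N-MC, a difference of -0.90 (SE 0.11, limma adjusted p = 6.33e-04). The RNA-binding protein STAU1 was lower by a smaller margin, with -0.35 (SE 0.11, limma adjusted p = 0.0493), and passed in 1 of the 6 fits that left out 1 array. CD44, a hyaluronan receptor, differed by 0.75 (SE 0.11, limma adjusted p = 0.00162) and beta-actin, ACTB, by 0.59 (SE 0.11, limma adjusted p = 0.00554), both higher in A673.

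None of the 9 genes passed the limma test for STEAP1 silencing, in either line or across both. LIN28A and DROSHA were above the control on all 4 siRNA arrays, by amounts that did not pass the test. Across both lines 0 of the 9 passed the adjusted threshold, as did 0% of all genes, and 0 of the 9 had an unadjusted p under 0.05, as did 4.63% of all genes. The median difference was -0.05 over the 9 genes and -0.01 over all genes. DROSHA differed by 0.23 (SE 0.12, limma unadjusted p = 0.0774, adjusted p = 0.989) and LIN28A by 0.27 (SE 0.13, limma unadjusted p = 0.0659, adjusted p = 0.989). Leaving out 1 array gave 0.12 to 0.35 for DROSHA and 0.07 to 0.47 for LIN28A. The siRNA arrays lay above the control on 4 of 4 for 2 of the 9 genes, against 10.6% of all genes, and below it on 4 of 4 for 0 of the 9, against 11.2%.

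LIN28B, the gene with the wide line difference, had a silencing difference of -0.01 (SE 0.13, limma adjusted p = 0.999). Its siRNA arrays stood above the control in A673, by 0.24 and 0.17, and below it in SK-N-MC, by -0.17 and -0.27. For IGF2BP1, IGF2BP2 and IGF2BP3 the silencing differences were -0.05 (SE 0.11), -0.07 (SE 0.15) and -0.09 (SE 0.12), and for DICER1, AGO1 and AGO2 they were -0.21 (SE 0.24), -0.09 (SE 0.16) and 0.06 (SE 0.19). The limma adjusted p of these 6 genes lay between 0.989 and 0.996. The standard errors show that a change of about their size would not have been detectable with 4 siRNA and 2 control arrays. Larger changes were missed too: STEAP1, the targeted gene, differed by -2.18 (SE 0.24, limma unadjusted p = 1.59e-05) and had a limma adjusted p of 0.293. The absence of calls among the members therefore says little about whether they changed.

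Within A673, 0 of the 9 genes passed by limma (0% of all genes) and 0 of the 9 had an unadjusted p under 0.05 (3.35% of all genes). Within SK-N-MC, 0 of the 9 passed (0.00543% of all genes, which is 1 gene), and 1 of the 9, LIN28A, had an unadjusted p under 0.05 (5.12% of all genes). LIN28A there differed by 0.47 (SE 0.16, limma unadjusted p = 0.0246, adjusted p = 0.925), at 2.10 and 2.14 on the siRNA arrays, against 1.65 on the control. The difference between the responses (A673 response minus SK-N-MC response) passed for 0 of the 9 genes (0% of all genes), and 0 of the 9 had an unadjusted p under 0.05 (3.86% of all genes). Both siRNA arrays lay above the control in A673 and below it in SK-N-MC for 2 of the 9, LIN28B and IGF2BP1, against 9.88% of all genes, and the reverse held for 0 of the 9, against 10.1%.

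Of the 90 pathway genes 0 passed by limma for silencing across the lines (0% of all genes), and 3 (3.33%) had an unadjusted p under 0.05, against 4.63% of all genes. TRIM71 differed by 0.36 (SE 0.12, limma unadjusted p = 0.0159, adjusted p = 0.989) and was above the control on 4 of 4 siRNA arrays. The other 2 lay below the control on 4 of 4 and are named after their values were seen: CDK6, a cell cycle kinase, with -0.43 (SE 0.14, limma unadjusted p = 0.0162), and THBS1, a matrix glycoprotein near the low end of the scale, with -0.43 (SE 0.15, limma unadjusted p = 0.0245). NCBP2, a cap-binding protein, differed by -0.36 (SE 0.17, limma unadjusted p = 0.0677) and the helicase MOV10 by -0.32 (SE 0.14, limma unadjusted p = 0.0526). All 5 had a limma adjusted p of 0.989. The genes of smallest p in the other lists were ADAR (-0.24), STAU1 (-0.17), MIR98 (-0.22) and PIWIL1 (0.08), with the same adjusted p.

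DICER1, AGO1 and AGO2 were lower on the siRNA 2 array than on the siRNA 3 array of each line. As a percentage of the control of the same line, DICER1 stood at 70.7% with siRNA 2 and 104% with siRNA 3 in A673, and at 64.7% with siRNA 2 and 117% with siRNA 3 in SK-N-MC. DICER1 was thus below the control with siRNA 2 and above it with siRNA 3 in both lines. Its log2 difference of siRNA 2 minus siRNA 3 was -0.55 in A673 and -0.86 in SK-N-MC, and -0.71 (SE 0.14) in the fit over both lines. The mean over both siRNAs, used for silencing above, combines these opposite signs.

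AGO1 stood at 89.3% of the control with siRNA 2 and 104% with siRNA 3 in A673, and at 75.6% with siRNA 2 and 110% with siRNA 3 in SK-N-MC. AGO2 stood at 89.7% with siRNA 2 and 113% with siRNA 3 in A673, and at 85.6% with siRNA 2 and 137% with siRNA 3 in SK-N-MC. Both followed the pattern of DICER1, with siRNA 2 below and siRNA 3 above the control in each line. The log2 differences of siRNA 2 minus siRNA 3 over both lines were -0.38 (SE 0.15) for AGO1 and -0.51 (SE 0.15) for AGO2. Each siRNA was measured on 1 array per line, so within a line a difference between arrays and one between siRNAs cannot be told apart.

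**Figure D3:**
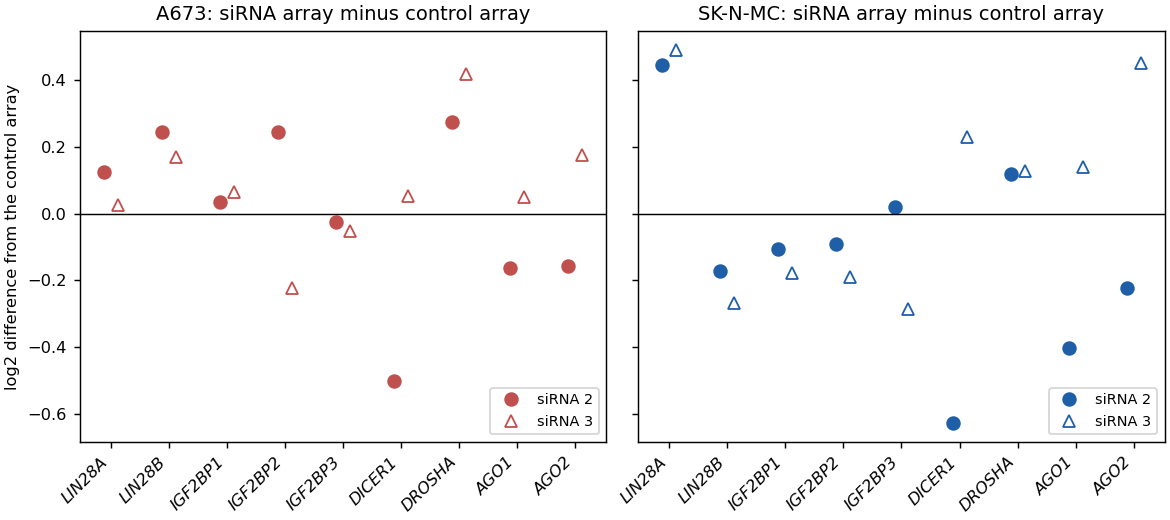
Log2 difference from the control array of the same line (vertical axis) of each of the 9 genes with siRNA 2 and siRNA 3, in A673 and SK-N-MC; each point is 1 siRNA array and the control is 0. DICER1 is at -0.50 and -0.63 with siRNA 2 and at 0.05 and 0.23 with siRNA 3, while DROSHA is above 0 on all 4.

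DROSHA and the other genes did not share that pattern. DROSHA stood above the control by 0.27 and 0.42 in A673 and by 0.12 and 0.13 in SK-N-MC, with siRNA 2 and siRNA 3. IGF2BP2 was higher with siRNA 2 than with siRNA 3, by 0.47 in A673 and 0.10 in SK-N-MC. Centred on the mean of each line, DICER1 correlated over the 6 arrays with AGO1 (0.97) and AGO2 (0.89), AGO1 with AGO2 (0.90), and DICER1 with DROSHA at -0.10. These correlations are a description of 6 arrays that share the same control arrays and normalization.

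Between the siRNAs, 0 of the 9 genes passed the adjusted threshold by limma (0% of all genes), and 3 of the 9 had an unadjusted p under 0.05 (6.67% of all genes). siRNA 2 lay below siRNA 3 in both lines for 4 of the 9, against 26.3% of all genes, and above it for 3 of the 9, against 24.6%. The set was selected on this contrast too, so nothing is read from these shares. Of the 90 pathway genes 0 passed by limma and 5 had an unadjusted p under 0.05. BTRC, a transcript bound by IGF2BP1, stood at 4.59 with siRNA 2 and 3.96 with siRNA 3 in A673, and at 4.81 and 4.14 in SK-N-MC, a difference of 0.65 (SE 0.16, limma unadjusted p = 0.00339, adjusted p = 0.572). CDC25A, a phosphatase of the cell cycle, differed by 0.52 (SE 0.15, limma adjusted p = 0.600), and GEMIN4 by -0.36 (SE 0.14, limma adjusted p = 0.727). The other 2 of the 5, named after their values were seen, were E2F2 (0.49, SE 0.20) and FNDC3A (-0.43, SE 0.17), each with a limma adjusted p of 0.728. The genes of smallest p in the other lists were HNRNPA1 (-0.29), TARBP2 (-0.17), PIWIL2 (-0.27), TUT7 (-0.14) and MIRLET7BHG (-0.24), and none passed.

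**Figure D4:**
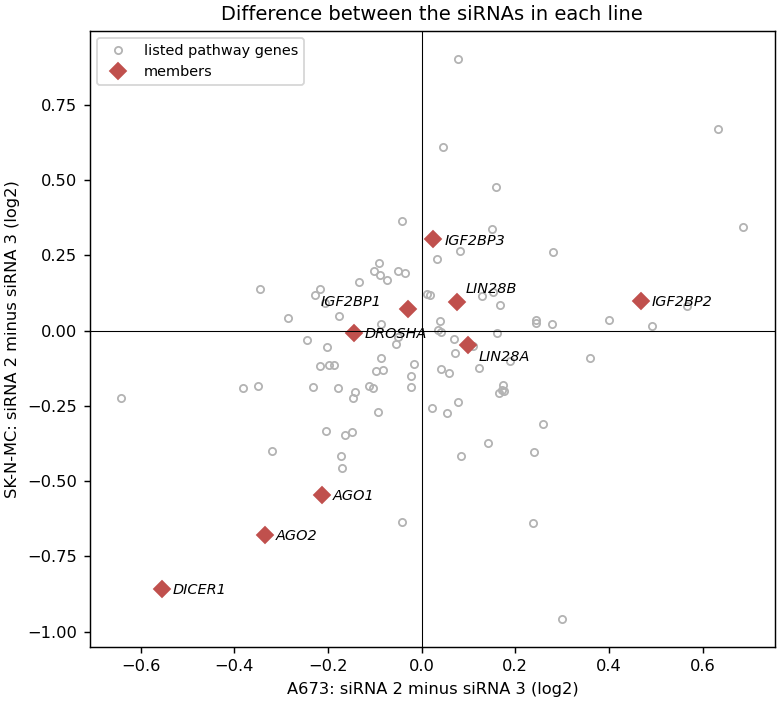
Log2 difference of siRNA 2 minus siRNA 3 in A673 (horizontal axis) against that in SK-N-MC (vertical axis), with members as filled diamonds and the listed pathway genes as open circles. DICER1 is at -0.55 in A673 and -0.86 in SK-N-MC, and AGO1 and AGO2 lie below 0 in both lines, as many open circles also do.

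The genes whose pattern was most like that of LIN28B were TBP, CKB and TAB2, among 7413 genes of mean log2 of at least 4. Their Pearson correlation with LIN28B over the 6 arrays was 0.9995, 0.9988 and 0.9988. LIN28B splits by line, the contrast on which it was chosen, so any gene steadily lower in A673 gives a high correlation. TBP, the TATA-binding protein, stood at 5.87, 5.89 and 5.77 in A673, against 7.11, 7.09 and 7.16 in SK-N-MC, so that it was lower in A673 as LIN28B was, by a smaller amount. For DICER1, with each line's mean removed, they were GGA2 (0.9986), BGN (0.9972) and KIF1B (0.9944), among 7412 genes. GGA2, an adaptor of vesicle transport, stood at 6.09, 6.33 and 6.30 in A673, against 5.91, 6.23 and 6.15 in SK-N-MC. The siRNA 2 array was the lowest of each line for GGA2, as it was for DICER1. DICER1 was chosen on its difference between the siRNAs, so these likenesses are a description and no test.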

How the data were processed

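Total RNA was hybridised to 6 arrays (Affymetrix Human Gene ST). Per the submitters' processing notes, the authors used Affymetrix Expression Console 1.1 and RMA, and the deposited intensities are on a linear scale. log2 of each deposited intensity was taken here. Of 33297 probe sets, 19460 are annotated to 1 symbol, 1754 to several and the rest to none. Of the 19460, 19429 were matched by gene ID to the RefSeq table (GRCh38.p14), and the others kept the symbol of the array annotation. The 19460 probe sets gave 18417 genes. Of several probe sets of a gene, the one with the highest mean was kept. The build behind the array annotation is not stated, so no array coordinates are printed.

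Models were fitted in R 4.3.3 with limma 3.58.1 using lmFit, then eBayes, with two-sided tests. They held line with silencing (3 residual degrees of freedom), 4 group means (2), or line with the siRNAs as separate terms (2). P-values were adjusted by Benjamini-Hochberg over all genes at 0.05. With 1 control array per line, the spread is pooled over groups, and precision is limited by how few arrays there are. The scripts were tested on simulated data.

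The members and lists were chosen with earlier results of these data known. All members are named; of each list, up to 4 genes with the largest line difference among those past the threshold are named with the gene of smallest p for silencing and between the siRNAs. The siRNA numbers are taken here to label reagents rather than cultures. Over all genes, the siRNA 2 minus siRNA 3 differences of the lines correlated at 0.0663, a value that cannot tell reagents from cultures. Alternatives were array scaling, a minimum level, an added offset, the probe set, all probe sets, an intensity trend, a replicate block and leaving out each array.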

Additional observations from a re-analysis of the deposited data

Results flagged for a closer look

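For LIN28B and IGF2BP1, both siRNA arrays of A673 lay above the A673 control while both siRNA arrays of SK-N-MC lay below the SK-N-MC control. The same held for 15 of the 90 listed pathway genes (16.7%), against 9.88% of all genes, and the reverse for 4 (4.44%), against 10.1%. The median difference between the responses was 0.10 over the 90 genes and 0.01 over all genes. Over the 7413 genes of mean log2 of at least 4 it was 0.09, close to that of the 90. These shares are therefore not read as a trait of the pathway genes. Of the pathway genes named for silencing, ADAR and PIWIL1 are among the 15. A direct limma test of the difference between the lines' responses passed for none of LIN28B, IGF2BP1, ADAR and PIWIL1. LIN28B was at 0.24 and 0.17 from the control in A673, against -0.17 and -0.27 in SK-N-MC, a difference of 0.43 (SE 0.23, limma unadjusted p = 0.109, adjusted p = 1.00). IGF2BP1 was at 0.03 and 0.06, against -0.11 and -0.18, a difference of 0.19 (SE 0.23, limma unadjusted p = 0.427). ADAR was at 0.18 and 0.03, against -0.77 and -0.39, a difference of 0.69 (SE 0.29, limma unadjusted p = 0.0527). PIWIL1, which lies near the low end of the scale, was at 0.30 and 0.26, against -0.12 and -0.11, a difference of 0.40 (SE 0.23, limma unadjusted p = 0.124). Each line's responses share 1 control array.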

How the results depend on the processing

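The count of 0 members called for silencing, across the lines or in each, and between the siRNAs was 0 under every alternative run. For silencing, values below 0 turned above it, or the reverse, in 11 member results, against 113 that did not, and none was past the threshold: LIN28B was 0.0095 with median centring and 0.0595 with a second quantile normalization, and leaving out 1 array gave -0.22 to 0.21 for LIN28B, -0.14 to 0.049 for IGF2BP1, -0.18 to 0.025 for IGF2BP2, -0.21 to 0.028 for AGO1 and -0.091 to 0.20 for AGO2. The cause was not tested. Between the lines, with 16 added before log2, LIN28A moved to -0.06, LIN28B to -1.64 and DROSHA to -0.78. For silencing, leaving out 1 array gave -0.40 to -0.03 for DICER1 without a change of sign. Members past the threshold between the lines, a count that is no test, numbered 2 to 4 in place of 3, and were 4 with the replicate block, in which 26 of the 90 pathway genes passed. A minimum mean log2 of 4 leaves out LIN28A and LIN28B. Pathway calls between the lines numbered 18 to 25 when 1 array was left out and 20 to 28 in the other alternatives. Between the siRNAs, LIN28A moved to 0.21 with the mean of its probe sets, and leaving out 1 array gave 0.11 to 0.46 for IGF2BP2 and -0.66 to -0.35 for AGO2. For the contrast between the siRNAs no other fit of this kind can be made, because the siRNA number is the contrast itself. The limits are 1 control array per line, siRNAs taken as replicates, values near the low end of the scale for LIN28A, for LIN28B in A673 and for let-7 precursors, and no measure of mature microRNA or protein.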
